A study of Mus musculus with 2 samples.

Results

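The genes described here break down haem and recycle its iron. They are 10 genes chosen by symbol, Hmox1, Blvra, Blvrb, Slc40a1, Slc11a1, Slc48a1, Fth1, Ftl1, Cd163 and Spic, out of 43346 genes in the deposited tables. Each symbol matched 1 identifier, and all 10 genes had values in both libraries. The tissue was whole spleen from C57BL/6J, a widely used inbred mouse strain, taken from adults at 8 weeks of age, with no treatment or mutation named in the labels. They form a single group of 2 biological replicates, called library 2 and library 1, so no conditions were compared. The labels describe littermates of both sexes and tie both samples to the same donor record. The animals behind each library are not identified there, so the spread between the libraries may be technical. Poly(A) RNA longer than 200 nucleotides was made into stranded libraries and sequenced as pairs of 76-nucleotide reads.

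Macrophages of the splenic red pulp engulf worn-out red cells and take their haemoglobin apart. Haem is carried out of the digestive vacuole, opened by haem oxygenase into iron, carbon monoxide and biliverdin, and biliverdin is reduced to bilirubin. The freed iron is either stored in ferritin, a hollow shell of heavy and light chains, or exported to the blood through ferroportin. When iron is scarce, iron regulatory proteins bind a hairpin in the mRNA leader, the stretch before the coding region, of ferritin and ferroportin and hold back their translation.

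The hairpins are shown because they are the sequence that the storage and export arms of the pathway have in common. A search of the annotated leaders for the element, a C followed by 5 bases, the loop CAGTGN and 5 bases that pair with the earlier 5 (G with U allowed), found it in 3 of the 10 genes, Fth1, Ftl1 and Slc40a1. Over all genes with an annotated leader of 17 bases or more, 31 of 20597 (0.151%) held the same pattern, whereas the loop letters CAGTGN alone were in a leader of 34.1% of them. The 3 sites, 5′ to 3′ with the loop in capitals, read from GENCODE M21 transcripts on GRCm38, are these:
Fth1, chr19:9982732-9982761, plus strand: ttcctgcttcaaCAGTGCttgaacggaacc
Ftl1, chr7:45459778-45459807, minus strand: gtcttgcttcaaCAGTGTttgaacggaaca
Slc40a1, chr1:45925464-45925493, minus strand: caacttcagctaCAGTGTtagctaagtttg
Over the 17 bases from the unpaired C to the end of the stem, the Fth1 and Ftl1 sites shared 16 bases, while Slc40a1 shared 10 with Fth1 and 11 with Ftl1. The unpaired C and the loop letters CAGTG were required by the search, so these bases match at every site by construction. The sites are a description of the letters, and binding was not measured.

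Gene counts came to 51393345 in library 2 and 49686344 in library 1, and the 10 genes drew between 202 and 127406 counts in a library. Haemoglobin genes took 30.3% of all TPM (a length-corrected share of the transcripts in a library) in library 2 and 19.4% in library 1. TPM adds up to a fixed total, and the median TPM ratio of library 2 over library 1 was 0.903 among genes at 1 TPM or more in both. Levels below are TPM. Differences are folds of library 2 over library 1, taken from expected counts after TMM scaling (trimmed mean of M-values). Markers of the labelled tissue were present. All 3 spleen patterning genes and all 13 red pulp macrophage markers reached 1 TPM in both libraries. Of tissues from outside the spleen, 5 hepatocyte genes summed to at most 3.45 TPM in a library. However, 6 pancreatic acinar genes summed to 5.92% of TPM in library 2 and 7.60% in library 1. In whole tissue, fewer cells of a type and less RNA per cell cannot be told apart.

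Ferritin mRNA dominated the pathway. Fth1 and Ftl1 together held 84.0% of the summed TPM of the 10 genes in library 2 and 84.5% in library 1, and 0.516% and 0.451% of all TPM in the same libraries. Haem oxygenase and the B form of biliverdin reductase followed at 225 to 391 TPM. The metal, haem and iron transporters came next, and Spic, Blvra and Cd163 were lowest. The mean level of the highest gene, Ftl1, was 1889 times that of the lowest, Cd163, on the TPM scale. All 10 genes reached 1 TPM in both libraries. Spleen holds many cell types, and these levels are averages over all of them and over any tissue from outside the spleen in the RNA.

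**Figure D1:**
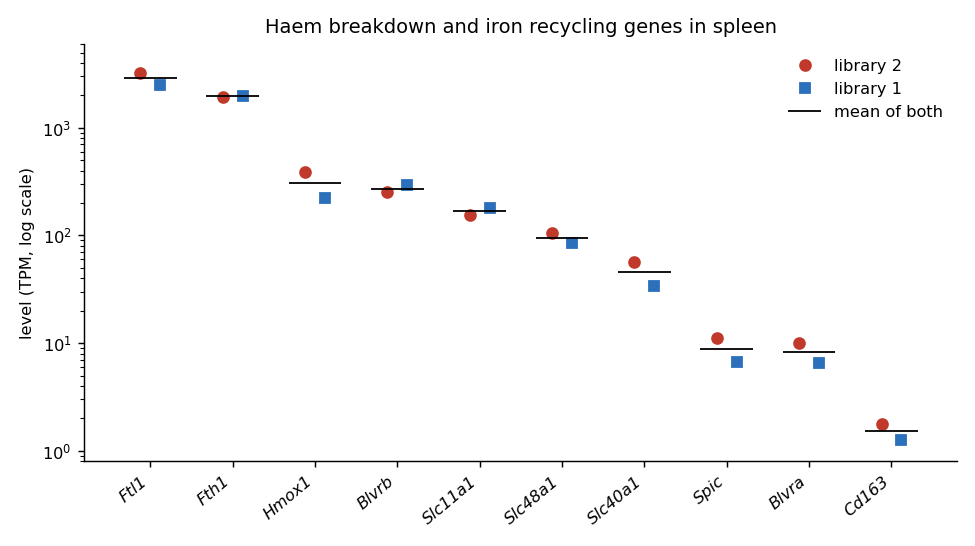
Level of each gene in TPM on a log axis, ordered by the mean of both libraries. Circles are library 2, squares library 1 and the line their mean; Ftl1 and Fth1 stand at 1938 TPM or more in both libraries, and Cd163 at 1.79 TPM or less.

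Haem oxygenase 1, the inducible enzyme that opens the haem ring, is encoded by Hmox1 (ENSMUSG00000005413, chromosome 8, 75093621 to 75100589 of GRCm38, plus strand). It measured 391 TPM in library 2, against 225 TPM in library 1 (mean 308 ± 118, SD, n = 2), which placed it at rank 232 among protein-coding genes by mean TPM. Library 2 was the higher one. The fold was 1.97 (95% counting interval 1.93 to 2.01), and this interval holds counting error alone, not the spread between animals. Hmox2, which encodes the constitutive haem oxygenase, measured 17.8 TPM in library 2, against 15.5 TPM in library 1. The inducible form thus exceeded the constitutive form 22.0-fold in library 2 and 14.5-fold in library 1. Por, the reductase that passes electrons to both oxygenases, stood at 48.5 and 53.8 TPM in the same libraries.

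The biliverdin reductases differed widely in level. Blvrb (ENSMUSG00000040466, chromosome 7, 27447978 to 27466144, plus strand) encodes the B form, which also acts as a flavin reductase and is abundant in red cells. Its level was 251 TPM in library 2 and 292 TPM in library 1 (272 ± 28.9, SD, n = 2). Blvra (ENSMUSG00000001999, chromosome 2, 127070665 to 127097084, plus strand) encodes the A form, the main producer of bilirubin in adults. It measured 10.1 TPM in library 2, against 6.58 TPM in library 1 (8.34 ± 2.48, SD, n = 2). Blvrb exceeded Blvra 24.9-fold in library 2 and 44.4-fold in library 1. The reductases did not move together between the libraries. Blvra had a fold of 1.75 (1.47 to 2.09), and Blvrb a fold of 0.980 (0.954 to 1.01).

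Of the transporters that move haem and iron across the vacuole membrane, Slc48a1 (ENSMUSG00000081534, chromosome 15, 97778520 to 97792692, plus strand) encodes HRG1, which carries haem into the cytosol. It measured 105 TPM in library 2, against 84.4 TPM in library 1 (94.8 ± 14.7, SD, n = 2), with a fold of 1.35 (1.32 to 1.39). Per length, its level was 0.269 of that of Hmox1 in library 2 and 0.376 in library 1. Slc48a1 overlaps the opposite-strand gene Hdac7, which measured 94.4 TPM in library 2, against 126 TPM in library 1. The fold of Slc48a1 and the levels of Hdac7 thus went in opposite directions. The sources used here do not give how strand was used in counting.

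Slc11a1 (ENSMUSG00000026177, chromosome 1, 74375195 to 74386062, plus strand) encodes NRAMP1, which moves iron and manganese out of the vacuole and is made by macrophages and neutrophils. C57BL/6 mice are known to carry an allele of it that impairs the protein. Its level was 155 TPM in library 2 and 181 TPM in library 1 (168 ± 18.1, SD, n = 2), and its fold was 1.02 (0.994 to 1.05). Slc11a2, which encodes the related transporter DMT1, measured 22.4 TPM in library 2, against 24.7 TPM in library 1. Slc11a1 thus exceeded it 6.91-fold and 7.32-fold in those libraries.

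Slc40a1 (ENSMUSG00000025993, chromosome 1, 45908068 to 45926523, minus strand) encodes ferroportin, the only known cellular iron exporter of mammals. It measured 56.5 TPM in library 2, against 34.1 TPM in library 1 (45.3 ± 15.8, SD, n = 2). Library 2 was the higher one, with a fold of 1.81 (1.75 to 1.88). The ratio of Slc40a1 to Hmox1 was 0.144 in library 2 and 0.152 in library 1.

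Summed over all annotated transcripts, Ftl1 exceeded Fth1 in both libraries. Counting only transcripts annotated as protein-coding in M21 turned the order, with Ftl1 at 647 TPM in library 2 and 602 in library 1, below the 1938 and 1993 TPM of Fth1 in those libraries. That count leaves out an Ftl1 entry with 79.2% of the gene's TPM in library 2 and 75.3% in library 1. M21 does not list the identifier of that entry, so it was left unclassified and was not shown to be noncoding. The order of the coding mRNAs is therefore not known here. Ftl1 (ENSMUSG00000050708, chromosome 7, 45457944 to 45459884, minus strand) encodes the light chain, which helps to form the iron core. It measured 3221 TPM in library 2, against 2519.9 TPM in library 1 (2871 ± 496, SD, n = 2), at rank 23 among protein-coding genes. Fth1 (ENSMUSG00000024661, chromosome 19, 9980598 to 9985098, plus strand) encodes the heavy chain, which oxidises incoming iron. It measured 1938 TPM in library 2, against 1993 TPM in library 1 (1965 ± 38.5, SD, n = 2), at rank 35. Over whole genes, the ratio of Fth1 to Ftl1 was 0.602 in library 2 and 0.791 in library 1. Ftl1 had a fold of 1.41 (1.40 to 1.43), and Fth1 a smaller one of 1.08 (1.07 to 1.09). The direction of Fth1 depended on the scale, since its TPM ratio was 0.973, below 1.

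Ferritin genes have many processed copies elsewhere in the genome, whose reads can be confused with theirs. Besides Fth1 and Ftl1, the tables list 13 entries whose symbols begin with Fth or Ftl, of which 10 had 0 counts in both libraries. The copy with most reads was Ftl1-ps1 on chromosome 13, with 26.9 TPM in library 2 against 42.9 TPM in library 1, equal to 0.834% and 1.70% of the Ftl1 level in those libraries. Its fold was 0.695 (0.641 to 0.753), opposite to that of Ftl1. Ftl1 was the single gene of the 10 whose expected counts were not whole numbers (tolerance 0.005), the form that reads divided between entries take. Adding every copy to its parent left the ratio of heavy to light chain at 0.687, against 0.696 without them (means of both libraries).

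The haemoglobin scavenger and the transcription factor of the set were at the low end. Cd163 (ENSMUSG00000008845, chromosome 6, 124304656 to 124330527, plus strand) encodes the macrophage receptor for haemoglobin bound to haptoglobin. It measured 1.79 TPM in library 2, against 1.25 TPM in library 1 (1.52 ± 0.382, SD, n = 2), with 401 and 254 counts, and its mean exceeded that of only 4.57% of the 11572 protein-coding genes at 1 TPM or more in both libraries. Its fold was 1.56 (1.33 to 1.84). Spic (ENSMUSG00000004359, chromosome 10, 88674772 to 88685015, minus strand) encodes SPI-C, a factor that haem induces and without which red pulp macrophages do not form. It measured 11.1 TPM in library 2, against 6.66 TPM in library 1 (8.89 ± 3.15, SD, n = 2), and its fold was 1.79 (1.60 to 1.99). Both genes were higher in library 2.

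By mean level of the whole gene the order was Ftl1, Fth1, Hmox1, Blvrb, Slc11a1, Slc48a1, Slc40a1, Spic, Blvra and Cd163. Among neighbours in that order, the ranges of the libraries overlapped for Hmox1 and Blvrb, whose means differed 1.13-fold, and for Spic and Blvra, whose means differed 1.07-fold. The ranges of the other neighbours did not overlap, and these gaps were not tested. The spread was uneven. The SD was 1.96% of the mean for Fth1, and at least 29.8% for Hmox1, Spic, Slc40a1 and Blvra.

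Most of the pathway was higher in library 2. By an exact two-sided binomial test of rounded expected counts, with Benjamini-Hochberg adjustment over 17547 genes and a threshold of 0.05, 8 of the 10 genes were higher in library 2 beyond counting error, where 24.5% of all genes tested were and 50.8% passed in either direction. None was lower, where 26.3% of all genes tested were, and Blvrb and Slc11a1 did not pass (adjusted p = 0.228 and 0.190 by the exact binomial test). The test compares the reads of these libraries and holds no estimate of the spread between animals. The median log2 ratio of the 10 genes was 0.57, and that of all genes tested was 0.0091. Calls are more common among deeper genes. Among genes with at least as many counts as the lowest of the 10, 66.3% passed in either direction and 28.8% were higher in library 2. That lowest gene was Blvra, with 357 counts in library 2 and 202 in library 1. Most of the 10 had far more counts, so the share at their own depth is not given. None of the 10 was more than 2-fold higher, on a log2 scale with a prior count of 2, where 4.43% of all genes tested were, and none more than 2-fold lower, where 2.81% were. Hmox1, at a log2 ratio of 0.98, lay nearest, followed by Slc40a1 at 0.86, Spic at 0.83 and Blvra at 0.80. The smallest difference that passed was that of Fth1 at 0.11 (adjusted p = 4.41e-43 by the exact binomial test). Some calls depended on scaling. With plain total counts Blvrb was lower beyond counting error (log2 ratio -0.06), and with haemoglobin and acinar genes left out of the totals Slc11a1 was higher (0.08) and Hmox1 passed 2-fold (1.02). By TPM ratio, 7 of the 10 genes were higher in library 2 and 3, Fth1, Blvrb and Slc11a1, were lower.

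**Figure D2:**
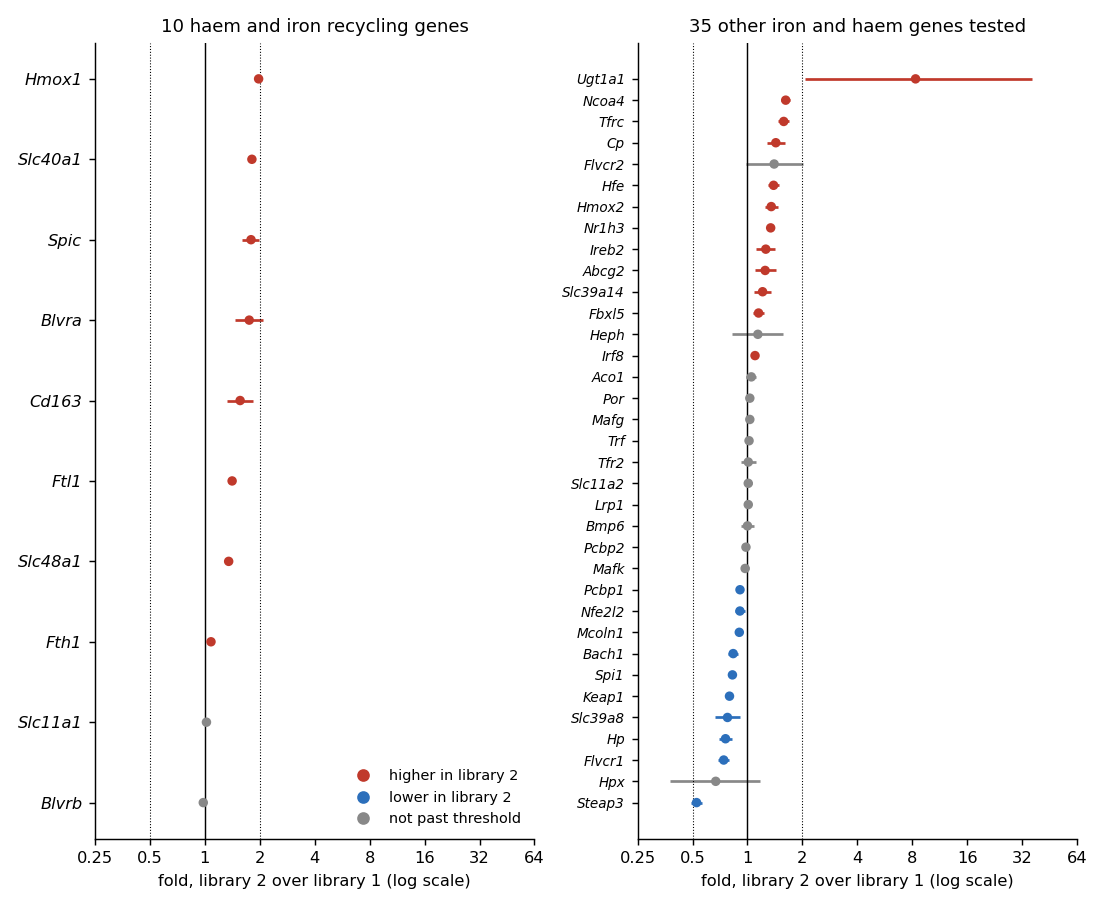
Fold of library 2 over library 1 on a log axis for the 10 genes (left) and for the 35 other iron and haem genes tested (right), with 95% counting intervals as lines. Colour shows the exact binomial call, and dotted lines mark 2-fold; 8 of the 10 genes lie to the right of 1 beyond counting error, whereas the other genes fall on both sides.

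Other genes of iron and haem handling were called in both directions. Of a list of 37 such genes, 35 had the 10 counts needed for the test. Of these, 12 were higher and 10 lower in library 2 beyond counting error, 13 did not pass, and the median log2 ratio was 0.028. Over all genes tested, 24.5% were higher and 26.3% lower, so these shares lay near the background. The split moved with scaling, to 17 higher and 9 lower with haemoglobin and acinar genes left out of the totals. The 4 with the highest mean levels were Trf, which encodes the plasma iron carrier transferrin (225 TPM in library 2 and 259 TPM in library 1), the macrophage and B cell factor Irf8 (212 and 218 TPM), the myeloid factor Spi1 (191 and 208 TPM) and the lysosomal cation channel gene Mcoln1 (169.8 and 198 TPM). Their folds lay close to 1. Trf had a fold of 1.02 that did not pass, Irf8 one of 1.10, Mcoln1 one of 0.902 and Spi1 one of 0.827. Trf and Irf8 had TPM below that of library 1 beside folds above 1, so their direction depended on the scale.

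By role, the capture genes Hp, Hpx and Lrp1 held 1 gene lower in library 2, the haptoglobin gene Hp (fold 0.758), and none higher. Counts by role are small and are to be read against all genes tested, of which 24.5% were higher and 26.3% lower. Of 6 genes for haem transport, the other oxygenase and its partners, 3 were higher (Hmox2, Abcg2 and Ugt1a1) and 1, the haem exporter Flvcr1, was lower (fold 0.741). Ugt1a1 encodes the enzyme that conjugates bilirubin, chiefly in liver. It was the single listed gene past 2-fold, but on 21 counts in library 2 and 3 in library 1 (fold 8.34), and it shares its last exons with neighbouring Ugt1a genes, so its division of reads is uncertain.

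Among 9 iron transport genes, 3 were higher in library 2 and 3 lower, where 24.5% and 26.3% of all genes tested were. The zinc and iron transporter gene Slc39a14 counted as higher (fold 1.21), but its TPM was 5.26 in library 2 against 7.35 in library 1. Its direction thus depended on the scale. The transferrin receptor gene Tfrc had a fold of 1.58, and Steap3, which encodes an iron reductase of red cell precursors, a fold of 0.526, just short of 2-fold. Ncoa4, the adaptor that delivers ferritin to lysosomes, was higher (fold 1.62), while the iron chaperone gene Pcbp1 was slightly lower (0.910) and the mitochondrial ferritin gene Ftmt was listed at 0 counts in both libraries. Of the iron sensing genes, Ireb2, Fbxl5 and Hfe were higher and none was lower. Hamp, which encodes the liver hormone hepcidin that closes ferroportin, had 1 count in library 2 and 2 counts in library 1.

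Of 8 transcription regulators, 2 were higher in library 2, 4 were lower and 2 did not pass. Over all genes tested, 24.5% were higher and 26.3% lower. Bach1, a repressor of Hmox1 that haem inactivates, had a fold of 0.835, its opponent Nfe2l2, which encodes NRF2, a fold of 0.909, and Keap1, which holds NRF2 back, a fold of 0.797. All 3 passed the exact binomial test. Nr1h3, which encodes the nuclear receptor LXR-alpha of splenic macrophages, was higher (fold 1.34), as was Irf8, and Spi1 was the other regulator that was lower. Protein levels and activity were not measured. Promoter windows from RefSeq (GRCm38.p6, 250 bases before to 50 after a start site) covered 7 of the 10 genes in 9 windows. The antioxidant response core TGACNNNGC, read on both strands, was in 1 of the 9, that of Blvra, against 12.4% of all windows. The PU box GAGGAA, also on both strands, was in 1 of the 9, that of Slc11a1, against 28.3% of all windows. These counts describe letters in short windows only.

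Markers of splenic macrophages and of erythroid cells also differed between the libraries. The counts of markers called are to be read against all genes tested, of which 24.5% were higher and 26.3% lower, and against the deeper genes named above, of which 66.3% passed in either direction. Of 13 red pulp macrophage markers, 12 were higher in library 2 beyond counting error and none lower, with a median log2 ratio of 0.31. Their TPM summed to 1422 in library 2 and 1364 in library 1. Single markers varied widely. The secreted macrophage protein gene Cd5l had a log2 ratio of 1.17, Mrc1 of 0.82, Vcam1 of 0.70 and Adgre1, which encodes F4/80, of 0.60, while the complement gene C1qb stood at 0.041 and did not pass. All 3 marginal zone and metallophilic macrophage markers were higher too, with a median log2 ratio of 1.36 and summed TPM of 76.8 in library 2 and 48.4 in library 1. Of 11 erythroid markers, 9 were higher and 2, Klf1 and Gata1, lower, with a median log2 ratio of 0.77 and summed TPM of 305005 in library 2 and 194733 in library 1. None of these markers was at 0. The part of either cell type in the differences of the 10 genes was not tested.

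Neutrophils and monocytes also make Slc11a1. Of 6 neutrophil markers, 4 were higher and 2, Camp and Retnlg, lower in library 2, with summed TPM of 259.8 in library 2 and 312 in library 1. Of 4 monocyte markers, 2 were higher and none lower, with summed TPM of 231 and 180.2 in those libraries. The B cell list held 3 genes higher and 2 lower, and the T cell list 3 higher and none lower. Their median log2 ratios were 0.079 and 0.20. All 3 spleen patterning genes were lower in library 2, with a median of -0.61, and none of the 4 hepatocyte genes tested passed. The pancreatic acinar list, with 5 genes higher and 1 lower, which marks tissue from outside the spleen, summed to 5.92% of TPM in library 2 and 7.60% in library 1.

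**Figure D3:**
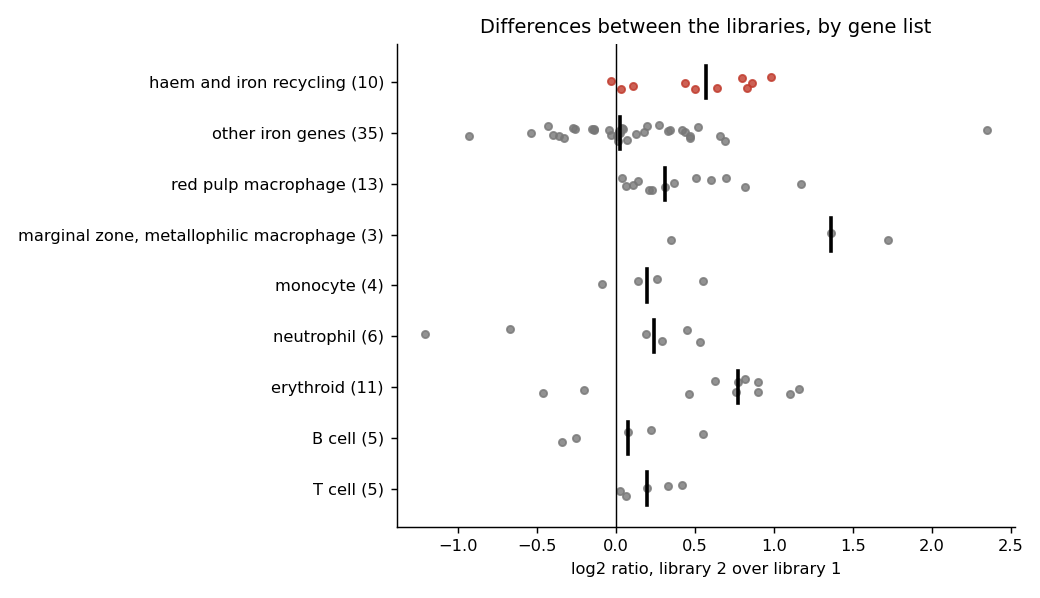
Log2 ratio of library 2 over library 1 for each gene, by list, with the number of genes tested in brackets and the list median as a black line. The 10 haem and iron recycling genes have a median of 0.57, between the red pulp macrophage markers at 0.31 and the erythroid markers at 0.77. The 3 marginal zone and metallophilic macrophage markers have the highest median of the lists shown, 1.36, and the other iron genes centre near 0.

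The transcript tables hold 46 annotated transcripts of the 10 genes. In 9 genes the same transcript led in both libraries by share of the gene's TPM, and in 9 genes the leading transcript held at least 50% of it on average. Fth1 has 1 listed transcript, and Slc48a1 and Cd163 have 2 each. For these genes a leader at 50% or more was fixed in advance. For Hmox1 the full-length coding transcript ENSMUST00000005548 held 79.5% of TPM in library 2 and 76.5% in library 1. A 556-nucleotide entry annotated as a retained intron held most of the rest. By reads the coding transcript held more, 93.8% and 93.0% of expected counts in those libraries, since TPM divides reads by length. Slc40a1 was likewise led by 1 coding transcript, ENSMUST00000027137, the one that carries the hairpin, at 90.4% of TPM in library 2 and 90.1% in library 1. Slc48a1 was made up almost wholly of 1 of its 2 listed transcripts, while all of Fth1 fell to its only listed transcript.

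Slc11a1 was the exception among the abundant genes. Its highest share of TPM, 35.2% in library 2 and 38.7% in library 1, went to ENSMUST00000135137, a 378-nucleotide entry annotated as a processed transcript without a coding region. That entry drew 5.76% of the gene's expected counts in library 2 and 6.36% in library 1. The coding transcript of 2315 nucleotides, ENSMUST00000027368, drew 64.7% and 59.2% of the counts in those libraries, but 33.8% and 28.3% of the TPM. Counting only transcripts annotated as protein-coding, Slc11a1 measured 67.0 TPM in library 2, against 66.7 TPM in library 1, well below the 155 and 181 TPM of the whole gene, and below the level of Slc48a1 in each library.

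Ftl1 was also divided. The entry ENSMUST00000135869, 943 nucleotides long, held 79.2% of its TPM in library 2 and 75.3% in library 1, and the coding transcript ENSMUST00000094434, in whose leader the hairpin was found, held 20.1% and 23.9%. The identifier of the 943-nucleotide entry is in the annotation M4 that the authors used and not in M21. M21 lists an Ftl1 transcript of the same length under another identifier and annotates it as subject to nonsense-mediated decay. Whether both are the same model was not tested, so how much of the Ftl1 level is light chain coding mRNA is not known here. Blvra was led by a 676-nucleotide coding entry by TPM (61.4% in library 2 and 66.1% in library 1), while the 1160-nucleotide coding transcript had the larger mean share of counts. In Spic a retained-intron entry held 14.3% of TPM in library 2 and 21.6% in library 1. Cd163 was the gene whose leading transcript changed, since ENSMUST00000112541 held 51.8% of its TPM in library 2 and 28.4% in library 1, on 209.6 and 73.3 expected counts.

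**Figure D4:**
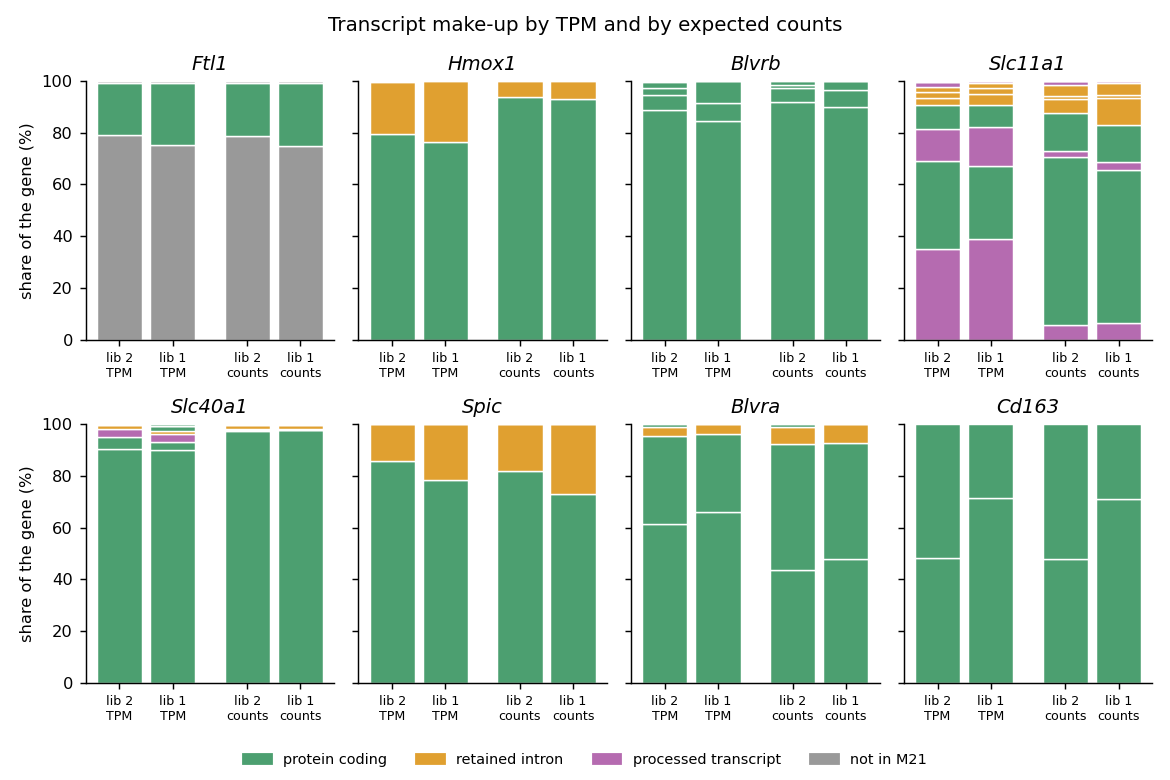
Share of each gene held by its annotated transcripts in 8 of the genes, by TPM (left pair of bars) and by expected counts (right pair), library 2 before library 1, coloured by M21 annotation. Processed transcripts take 49.6% of Slc11a1 TPM in library 2 and 54.5% in library 1, and the leading one takes 5.76% and 6.36% of its counts.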

How the data were processed

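Spleen poly(A) RNA was measured in 2 libraries of 1 group. The gene and transcript tables were made by the authors on mm10 with annotation M4, per the deposited notes. The sources used here do not give the aligner, the quantification tool or their versions. Deposited expected counts are estimated reads per entry, not normalized. Deposited TPM values are abundances brought to a fixed total with spike-ins included, and deposited FPKM values are fragments per length and library. Transcript shares were deposited as a percent of the gene. Intervals of TPM were deposited and not used in tests.

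Symbols (42462 of 43346 identifiers matched) and positions came from GENCODE M21, GRCm38. Spike-ins and entries that are no genes were left out. TMM factors (edgeR 4.0.16, R 4.3.3) over genes with 10 or more counts were 0.988 for library 2 and 1.01 for library 1. Log2 ratios add a prior count of 2, and folds add none. Counting intervals are exact (Clopper-Pearson, 95%) on rounded counts, and hold counting error alone, because they include no estimate of spread between replicates. Without molecular identifiers PCR copies cannot be set apart, so the intervals may be too narrow even for counting error. The binomial test was run with Python 3.11.15 and scipy 1.17.1 and tried on simulated data. Those data held counting error alone, so the trial cannot show how the test behaves under further spread between libraries. The design leaves no replicate check of a ratio. DESeq2 1.42.0 gave alternative size factors. A GC and length trend was fitted by lowess (statsmodels 0.14.6) and a TPM ratio per gene was added, both chosen after the data were seen, as was the stem part of the hairpin pattern. All 10 genes are named. Of the other iron genes, the 4 of highest level, those past 2-fold and the partners in ratios were named by rule, and the rest of those named were chosen after their values were seen. The genes and lists were chosen with earlier results of these data known. Splice junction and contig lists on mm9 were not used.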

Additional observations from a re-analysis of the deposited data

How the results depend on the processing

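The count of genes higher in library 2 stayed at 8 or 9 of 10 under these other settings: DESeq2 size factors, total counts, total counts without haemoglobin and acinar genes, no low-count filter, a minimum of 50 counts, counts cut to whole reads, and removal of the GC and length trend, which was chosen after seeing the data. In the main setting 24.5% of all genes tested were higher and 26.3% lower, and these shares are not given for the other settings. Scaling moved all genes too. Their median log2 ratio was -0.025 with plain total counts and 0.051 without haemoglobin and acinar genes. With plain total counts, 1 gene, Blvrb, was lower beyond counting error (log2 ratio -0.06). Slc11a1 passed as higher without haemoglobin and acinar genes (0.08) and with the trend removed (0.12). Under those same settings 1 gene, Hmox1, came to more than 2-fold higher (1.02 under both). Of the other iron genes, 17 were higher and 9 lower without haemoglobin and acinar genes, and 14 higher and 10 lower with the trend removed, against 12 and 10. The ratio of deposited TPM, chosen after seeing the data, reversed Fth1, to -0.040 on the log2 scale. Slc11a1, which did not pass in the main setting, also changed sign, from 0.03 to -0.22. Leaving haemoglobin and acinar genes out of TPM brought the median level of the 10 genes to 193, against 131 TPM, since the same total is then shared by fewer genes. Leaving out a library only returns the value of the other, so the ranges that follow are values per library and add no independent check. They were 130.2 to 133 TPM for the median level of the 10 genes, 0.602 to 0.791 for Fth1 over Ftl1, 24.9 to 44.4 for Blvrb over Blvra, 14.5 to 22.0 for Hmox1 over Hmox2, 6.91 to 7.32 for Slc11a1 over Slc11a2, 0.144 to 0.152 for Slc40a1 over Hmox1, and 0.269 to 0.376 for Slc48a1 over Hmox1. No paired analysis was possible because both libraries belong to 1 group. With 2 libraries, differences below the spread between animals cannot be told apart from it, however deep the counts.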

Other observations

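Single transcripts of Blvrb differed between the libraries although the gene as a whole did not pass. ENSMUST00000108357, a coding entry of 782 nucleotides, had 159.9 expected counts in library 2 and 0 in library 1, while ENSMUST00000133750, of 509 nucleotides, had 119.8 in library 2 and 354 in library 1. The leading transcript ENSMUST00000037399 had 9773 and 9666. In Hmox1, the minor entry ENSMUST00000160341 had 23.1 expected counts in library 2 and 1.11 in library 1. These entries overlap other transcripts of their genes, so reads were divided by estimation, and no test was made of them.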
